A study of Danio rerio with 28 samples.

Results

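The genotype by microbiota interaction asks, gene by gene, whether the response of the larval zebrafish gut to microbes differs by genotype at il22, the gene of interleukin-22. The response is the difference between conventional larvae, which carry microbes, and germ-free (axenic) larvae, which carry none. The interaction is the response in il22-/- larvae minus the response in wild type (WT) larvae, on the log2 scale. It was computed by this rule from 16 of the 28 libraries of the series, 4 each of conventional il22-/-, germ-free il22-/-, conventional WT and germ-free WT guts. A positive interaction means that the level with microbes relative to without them was higher in il22-/- than in WT, and a negative one that it was lower. Each library was bulk RNA sequencing of a pool of 10 to 15 guts dissected from larvae 7 days post-fertilization, so the spread between libraries is one between pools, not between single larvae. The sources used here do not give the il22 allele, the WT strain or how the larvae were fed. Conventional il22-/- and conventional WT larvae were separate groups, and no measure of their microbes was used. A response that depends on genotype therefore cannot be told apart from a difference between the microbes of these groups. Of 15419 genes in the count table, 11195 had enough reads to be tested, and 82 passed the test of the interaction.

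Interleukin-22 is a cytokine of lymphoid cells that acts on epithelial cells through its receptor and the transcription factor STAT3, and in mice it is known for inducing antimicrobial and barrier genes. Microbes that colonize the larval gut change the expression of epithelial genes for lipid handling, defence and the metabolism of foreign compounds. One sensor of such compounds is the aryl hydrocarbon receptor, which binds planar dietary and microbial molecules, switches on cyp1a and, in mice, also promotes il22 expression in lymphoid cells.

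Per library, the sum of counts divided by 1e+06 ranged over 25.16 to 27.06 in conventional il22-/-, 23.58 to 26.59 in germ-free il22-/-, 26.43 to 30.89 in conventional WT and 23.92 to 31 in germ-free WT. The targeted gene gave little check of the labels: il22 had 1 to 9 counts per library in conventional il22-/-, 0 to 1 in germ-free il22-/-, 1 to 18 in conventional WT and 0 to 5 in germ-free WT. That is 0.178 ± 0.120, 0.0295 ± 0.0197, 0.361 ± 0.327 and 0.0664 ± 0.0886 counts per 1e+06 (CPM), in the same order (SD, n = 4 each), and the 4 groups overlapped. It fell under the count filter, and without a filter its interaction was 0.09 ± 0.80 (SE) with an adjusted p of 1.00. Epithelial markers such as fabp6, vil1 and cdh17 were high in all 4 groups, while fabp2 and anpepb, also listed as markers, were not among the genes tested. The mean log2 CPM of the 6 intestinal epithelium genes tested lay between 9.45 and 10.3 in every library. It was not even across groups: 10.2 to 10.3 in conventional il22-/-, 9.82 to 10.0 in germ-free il22-/-, 9.71 to 9.95 in conventional WT and 9.45 to 9.75 in germ-free WT. Nor did the 6 genes move alike. In the same order, cldn15la averaged 1535, 911, 392 and 335 CPM, a marked difference between the genotypes. cdx1b, lower with microbes in both genotypes, averaged 147, 184, 115 and 174 CPM.

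One library stood apart from its group. In conventional WT 4, 33.6% of the genes tested lay outside the range of the other 3 conventional WT libraries by more than that range, against 4.85% to 19.6% in the other 15 libraries by the same measure. Among 4155 genes that responded to microbes in WT when this library was left out, 72.2% were nearer to the germ-free WT mean than to the mean of the other 3 conventional WT libraries. The same share was 2.29% to 19.2% for each of the other 15 libraries. fkbp5, a chaperone partner of steroid receptors that glucocorticoids induce, shows the pattern: it stood at 573, 646 and 475 CPM in conventional WT 1 to 3 and at 59.9 CPM in conventional WT 4, against 37.6 to 108 CPM in germ-free WT. Results are therefore given from all 16 libraries, and the list counts and the calls that changed most also without conventional WT 4. That choice was made after the library's values were seen. As it lies nearer germ-free WT for most responding genes, leaving it out tends to narrow the conventional WT spread and widen the WT response. More calls in that fit were thus largely fixed beforehand and are no independent support. Why the library differs was not tested.

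**Figure D1:**
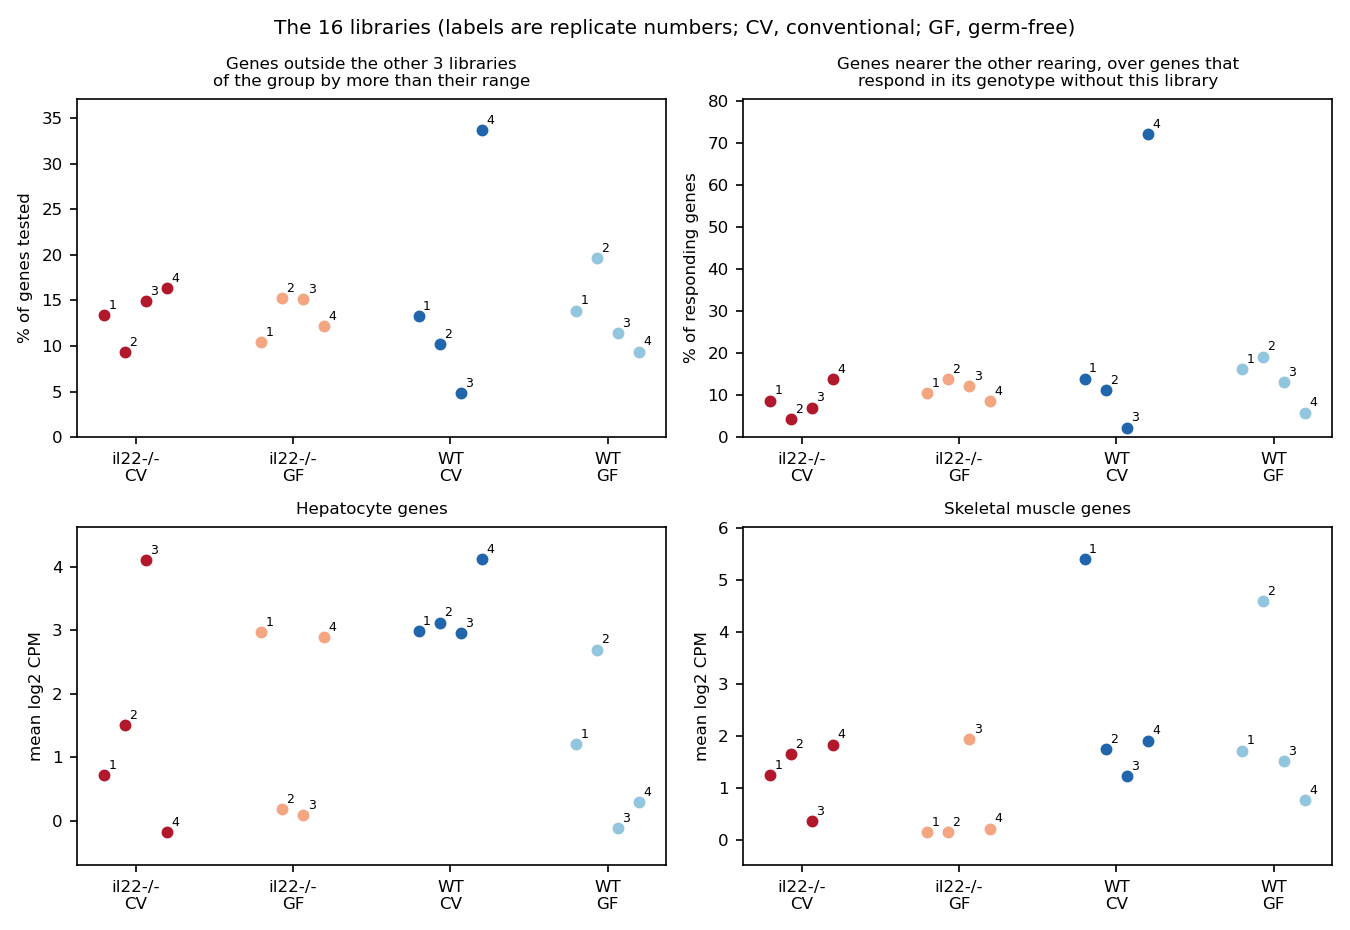
Each point is 1 library, labelled with its replicate number, in the order conventional (CV) and germ-free (GF) il22-/-, then conventional and germ-free WT. The upper panels give the percent of genes outside the range of the other 3 libraries of the group by more than that range and, among genes that respond without the library, the percent nearer to the other rearing, where conventional WT 4 stands at 33.6% and 72.2%. The lower panels give the mean log2 CPM of hepatocyte and skeletal muscle genes, which are spread unevenly over the libraries.

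Tissue that adheres to a dissected gut also varied. Of 30 hepatocyte genes listed, 27 were tested and none was absent from a whole group. Their summed level was 385 to 934 CPM in conventional il22-/-, 362 to 595 CPM in germ-free il22-/-, 680 to 891 CPM in conventional WT and 359 to 453 CPM in germ-free WT. A large part of this sum was rbp4, itself a called gene described below, which averaged 176, 152, 346 and 163 CPM in the same order. The list's median interaction was −1.48, against −0.0112 over all genes tested, with 24 of 27 members below 0 and 1, rbp4, past the test. The median was −0.95 without conventional WT 4, which had the highest hepatocyte score of its group. Skeletal muscle genes averaged 5.39 log2 CPM in conventional WT 1 and 4.59 in germ-free WT 2, and at most 1.94 in the other 14 libraries. In pools of whole guts, more cells of a type and more RNA per cell cannot be told apart.

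The interaction was tested in edgeR by the quasi-likelihood method, with p-values adjusted after Benjamini and Hochberg over all genes tested and a threshold of 0.05. The 82 genes were 0.732% of those tested: 24 had a positive interaction (0.214%) and 58 a negative one (0.518%). For comparison, 26.7% of the genes passed the same test for the response to microbes in il22-/- and 25.3% in WT. At an unadjusted p under 0.05 there were 1658 interactions among the 11195 genes tested. The counts at this threshold given for lists below stand against that background. List counts at the adjusted threshold from all 16 libraries stand against 0.732% for edgeR. For DESeq2 they stand against 3.88% of the genes to which it gave an adjusted p. The absolute size ran from 0.373 to 3.31 on the log2 scale, with a median of 0.844. When conventional WT 4 was left out, 1204 of 11272 genes passed (10.7%), 528 of them positive (4.68%) and 676 negative (6%), and they included all 82. With more calls, the adjusted threshold admitted larger unadjusted p values in that fit. An example is 0.00514 for psmb8a, against at most 0.000366 among the 82 in edgeR's test of all 16 libraries. A gene could therefore pass there without a smaller unadjusted p.

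The 82 genes took 4 forms. In 41 genes the response passed in il22-/- and not in WT, and in 16 it passed in WT and not in il22-/-. In 14 it passed in both genotypes in the same direction with unequal size. In the last 11 it passed in both in opposite directions, and in all 11 the conventional level was below the germ-free level in il22-/- and above it in WT. The 1204 genes called when conventional WT 4 was left out comprised 278, 594, 219 and 98 of these forms in the same order, and 15 with neither response past the test, so genes that responded in WT alone became the most frequent form. Of the 98 with opposite responses, 70 were lower in il22-/- and higher in WT with microbes, and 28 the reverse.

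**Figure D2:**
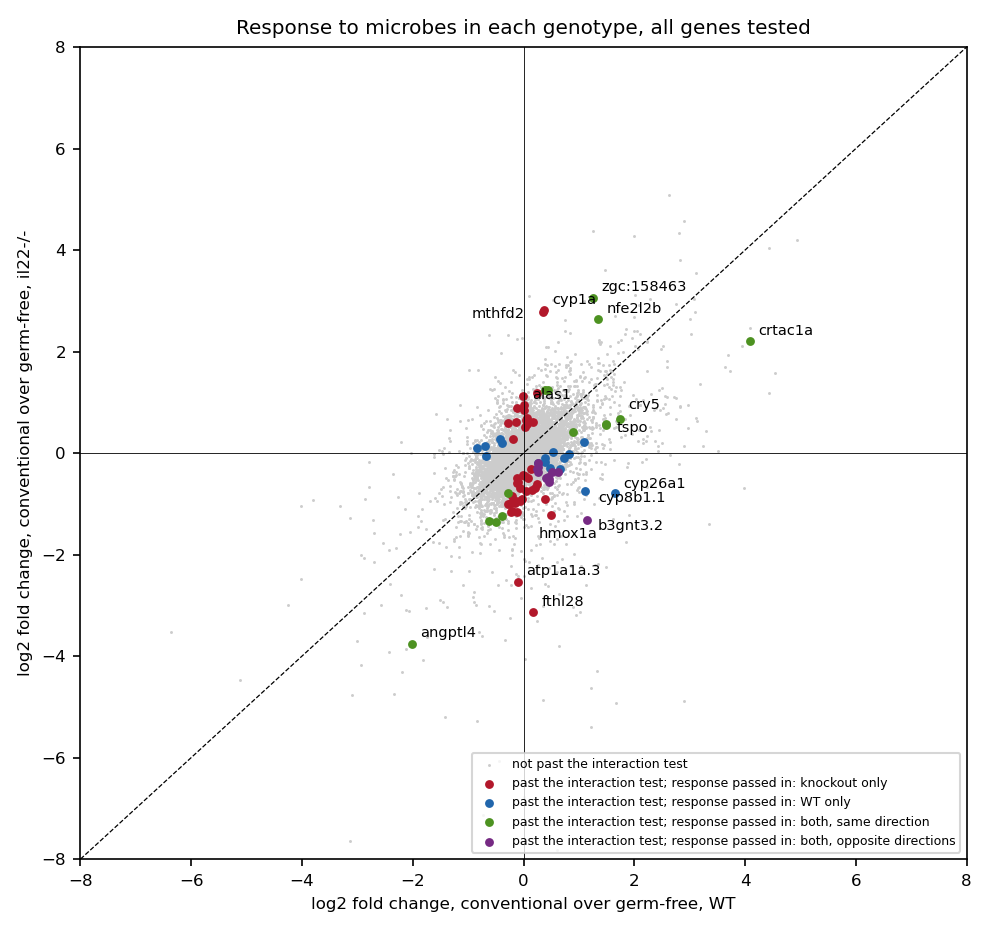
Each point is 1 of the 11195 genes tested, with the log2 fold change of conventional over germ-free guts in il22-/- on the vertical axis and in WT on the horizontal axis. Colours mark the 82 genes past the interaction test by the genotype in which the response passed, the dashed line marks equal responses, and the vertical distance of a point from it is the interaction. The 11 genes with opposite responses all lie in the lower right quadrant.

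The positive interactions with the largest size were led by cyp1a, the cytochrome P450 that oxidizes planar aromatic compounds. It stood at 594, 463, 516 and 877 CPM in conventional il22-/-, 92.9, 93.9, 57.3 and 103 CPM in germ-free il22-/-, 275, 391, 158 and 212 CPM in conventional WT and 208, 181, 229 and 181 CPM in germ-free WT. All conventional il22-/- libraries lay above every other library and all germ-free il22-/- libraries below, while the WT groups overlapped. The response was 2.82 ± 0.28 (SE) in il22-/- and 0.38 ± 0.26 in WT, and the interaction was 2.44 ± 0.38 with an adjusted p of 0.0183. cyp1a was 1 of 28 measured genes of the aryl hydrocarbon receptor and phase I metabolism list to pass. The list's median interaction was 0.09, against −0.0112 over all genes, so the list as a whole did not share the size of cyp1a.

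No other gene of that list passed edgeR's test from all 16 libraries. DESeq2 called 1 more, ahr1a, a receptor gene, with 0.93 ± 0.29 (adjusted p = 0.0391), against 0.94 ± 0.28 (adjusted p = 0.125) in edgeR. ahrra, which encodes the receptor's repressor and is itself a target, had 2.80, 2.31, 1.39 and 2.22 CPM in conventional il22-/-, 0 to 0.119 CPM in germ-free il22-/-, 0.357, 0.102, 0.528 and 1.502 CPM in conventional WT and 0.0750 to 0.139 CPM in germ-free WT. Its interaction of 2.46 did not pass (adjusted p = 0.312), and without conventional WT 4, the highest of its group, it was 3.38 ± 0.88 with an adjusted p of 0.0233. ahrrb, a second repressor gene, had the largest interaction of the list, 3.13 ± 1.36, which did not pass (adjusted p = 0.296; 0.0520 without conventional WT 4). It was near the detection limit, with 0.575, 0.461, 0.183 and 0.806 CPM in conventional il22-/-, 0 to 0.0397 CPM in germ-free il22-/-, 0.227, 0.204, 0.0377 and 0.734 CPM in conventional WT and 0 to 0.225 CPM in germ-free WT. The il22-/- groups did not overlap and the WT groups did. tiparp, another target, had an interaction of 0.21 (adjusted p = 0.599), and cyp1c1, a relative of cyp1a, −1.21 (adjusted p = 0.593). cyp2p7, a further cytochrome P450 of the list, had an interaction of 0.33 (adjusted p = 0.240) from all libraries and of 0.45 ± 0.09 (adjusted p = 0.00449) without conventional WT 4. In that fit 3 of the 28 genes passed, or 10.7%, the same share as over all genes.

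A second cytochrome P450, cyp2aa12, was among the few genes called in every fit that left out 1 library. It had 271, 233, 240 and 265 CPM in conventional il22-/-, 112, 101, 113 and 117 CPM in germ-free il22-/-, 153, 216, 168 and 159 CPM in conventional WT and 153, 130, 154 and 150 CPM in germ-free WT. The il22-/- groups lay above and below all WT libraries, and the interaction was 0.94 ± 0.14 (adjusted p = 0.0158). It belongs to a tandem gene family whose close copies the counting may have split, so its level is uncertain.

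alas1, the first enzyme of haem synthesis, had 1042, 839, 1006 and 842 CPM in conventional il22-/-, 494, 407, 493 and 551 CPM in germ-free il22-/-, 319, 416, 370 and 360 CPM in conventional WT and 406, 294, 333 and 424 CPM in germ-free WT. Its response was 0.94 ± 0.13 in il22-/- and 0.01 ± 0.12 in WT, an interaction of 0.93 ± 0.18 (adjusted p = 0.0253). hmox1a, the enzyme that breaks haem down, had a negative interaction, with 10.7, 6.88, 6.47 and 9.59 CPM in conventional il22-/-, 23.8, 18.9, 22.7 and 13.0 CPM in germ-free il22-/-, 34.3, 26.5, 40.3 and 22.9 CPM in conventional WT and 30.0, 16.3, 23.6 and 18.2 CPM in germ-free WT. Only the conventional il22-/- group was separate, below all others, and the interaction was −1.71 ± 0.35 (adjusted p = 0.0397).

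fthl28, a ferritin heavy chain-like gene for iron storage, had the largest absolute interaction of the 82 genes, −3.31 ± 0.50 (adjusted p = 0.0183). It had 14.7, 11.49, 17.4 and 19.8 CPM in conventional il22-/-, 126, 263, 78.3 and 92.1 CPM in germ-free il22-/-, 21.7, 14.01, 12.1 and 22.4 CPM in conventional WT and 12.3, 18.8, 13.0 and 18.2 CPM in germ-free WT. Germ-free il22-/- guts were the only group apart from the rest. Ferritin-like genes form a cluster of near copies in fish, and reads may have been divided among them.

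nfe2l2b, a zebrafish paralog of the oxidative stress factor Nrf2, responded in both genotypes, by 2.64 ± 0.16 in il22-/- and 1.35 ± 0.15 in WT, and its interaction was 1.29 ± 0.22 (adjusted p = 0.0204). It averaged 19.1 ± 1.77 CPM in conventional il22-/-, 3.07 ± 0.651 CPM in germ-free il22-/-, 14.1 ± 1.79 CPM in conventional WT and 5.52 ± 1.07 CPM in germ-free WT (SD, n = 4 each), with no overlap between any pair of groups. tspo, an outer mitochondrial membrane protein that binds cholesterol and porphyrins, responded in both genotypes too, but more in WT. Its levels were 139, 142, 143 and 131 CPM in conventional il22-/-, 103, 95.1, 90.3 and 83.8 CPM in germ-free il22-/-, 166, 172, 165 and 152 CPM in conventional WT and 62.1, 46.8, 56.0 and 68.4 CPM in germ-free WT, an interaction of −0.92 ± 0.14 (adjusted p = 0.0158). tspo is also on the erythrocyte list, of which it alone among 10 tested members passed. The list's median interaction was −0.91, and its globin genes hbae3, hbae5, hbbe1.1, hbbe1.3 and hbbe2 averaged under 6 CPM in every group.

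**Figure D3:**
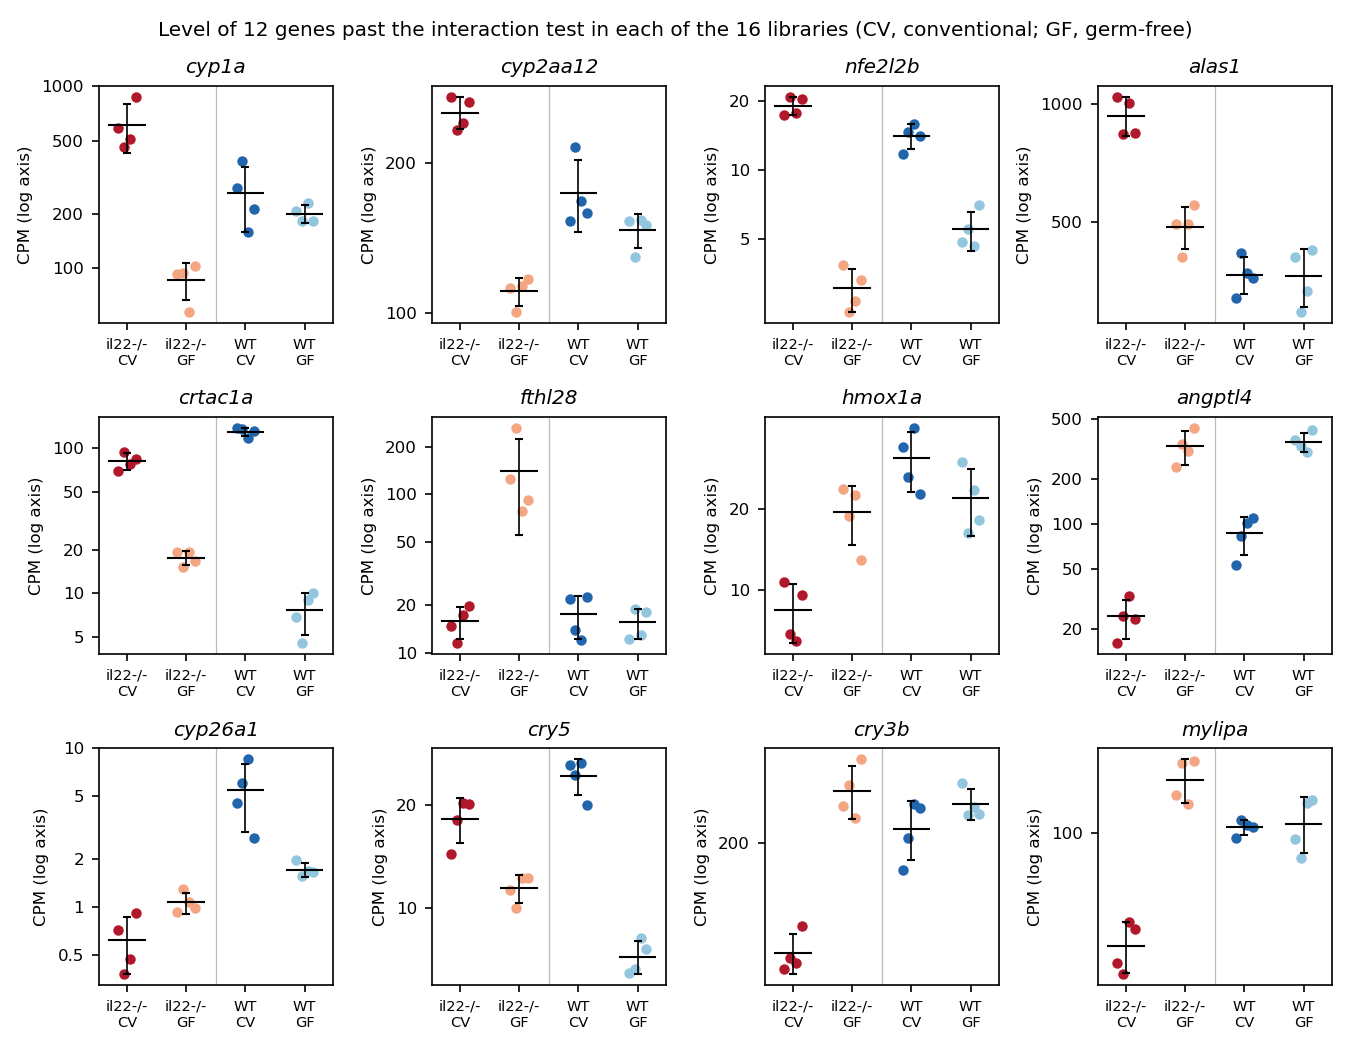
Level of 12 genes past the interaction test in CPM on a log axis, with 1 point per library, the group mean as a long bar and ± 1 SD as error bars (n = 4 per group; CV, conventional; GF, germ-free). In cyp1a, cyp2aa12 and alas1 the 2 il22-/- groups are far apart and the WT groups close together, in crtac1a and cry5 the WT groups are further apart than the il22-/- groups, and in cry3b, hmox1a and mylipa conventional il22-/- lies below the other 3 groups.

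Among other positive interactions, gpr160, an orphan G protein-coupled receptor, differed mainly through germ-free il22-/- guts. It averaged 16.1 ± 1.23 CPM in conventional il22-/-, 8.73 ± 1.03 CPM in germ-free il22-/-, 18.1 ± 3.64 CPM in conventional WT and 19.6 ± 2.48 CPM in germ-free WT (SD, n = 4 each; interaction 0.99 ± 0.19, adjusted p = 0.0253). All germ-free il22-/- libraries lay below the rest, as they did for tubb2b, a beta-tubulin with an interaction of 0.83 ± 0.16 (adjusted p = 0.0253). fam114a1 differed through WT: 5.47 ± 0.263 CPM in conventional il22-/- and 5.13 ± 0.204 CPM in germ-free il22-/-, against 3.19 ± 0.664 CPM in conventional WT and 5.72 ± 0.636 CPM in germ-free WT (interaction 0.93 ± 0.18, adjusted p = 0.0300). The ubiquitin ligase gene rnf19b had an interaction of 0.86 ± 0.18 (adjusted p = 0.0411), with 12.1, 11.9, 10.96 and 17.6 CPM in conventional il22-/-, the last well above its group, and 8.21 to 11.51 CPM in the other 12 libraries. stard14 averaged 82.3 ± 3.58 CPM in conventional il22-/- and between 52.1 and 58.0 CPM in the other 3 groups, an interaction of 0.62 ± 0.10 (adjusted p = 0.0186).

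Some positive interactions outside the rule for naming were picked after their values were seen. mthfd2, a mitochondrial enzyme of folate metabolism, was low throughout but had 2.88, 3.77, 2.92 and 3.26 CPM in conventional il22-/-, against 0.158 to 0.635 CPM in all other libraries (interaction 2.43 ± 0.51, adjusted p = 0.0430; 0.57 on the log2(TPM + 1) scale, which compresses low values). zgc:158463, whose function is not annotated in the sources used here, averaged 3849 CPM in conventional il22-/-, 461 CPM in germ-free il22-/-, 1785 CPM in conventional WT and 749 CPM in germ-free WT, with an interaction of 1.81 ± 0.37 (adjusted p = 0.0430). ugt2b6, a glucuronosyltransferase that conjugates lipophilic compounds, had an interaction of 0.63 ± 0.11 (adjusted p = 0.0233), and belongs to a family of similar copies. myd88, the adaptor of Toll-like receptors, had an interaction of 0.59 ± 0.13 (adjusted p = 0.0453), with 19.2 ± 0.857 CPM in conventional il22-/- and 16.7 ± 1.47 CPM in germ-free il22-/-, and 15.5 ± 1.21 CPM in conventional WT and 20.4 ± 2.25 CPM in germ-free WT (SD, n = 4 each). Its response passed in WT alone.

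Negative interactions were the larger set, and crtac1a had the smallest p of all genes. It encodes a secreted acidic protein named for its expression in cartilage. Its levels were 69.1, 94.7, 77.8 and 84.6 CPM in conventional il22-/-, 19.3, 15.2, 19.2 and 16.7 CPM in germ-free il22-/-, 136, 134, 118 and 130 CPM in conventional WT and 6.88, 4.54, 9.02 and 10.1 CPM in germ-free WT. No pair of groups overlapped, and microbes were associated with a higher level in both genotypes, by 2.21 ± 0.18 in il22-/- and 4.08 ± 0.19 in WT. The interaction was −1.87 ± 0.25 (adjusted p = 0.0106). crtac1a was the single gene called under every alternative planned for the test. In edgeR's fit with covariates for exocrine pancreas and hepatocyte scores its adjusted p was 0.0450. mylipa, tspo, cyp2aa12 and rdh14b failed to pass in that fit alone, with adjusted p values of 0.0625 to 0.0768.

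angptl4, an inhibitor of lipoprotein lipase that gut microbes are known to suppress in mice and zebrafish, was lower with microbes in both genotypes and more so in il22-/-. It had 16.2, 24.6, 33.5 and 23.6 CPM in conventional il22-/-, 240, 340, 304 and 435 CPM in germ-free il22-/-, 53.4, 83.9, 101 and 109 CPM in conventional WT and 359, 329, 303 and 419 CPM in germ-free WT. The germ-free groups overlapped and the conventional groups did not, which gave responses of −3.75 ± 0.27 in il22-/- and −2.02 ± 0.25 in WT and an interaction of −1.73 ± 0.34 (adjusted p = 0.0372). It was 1 of 31 tested genes of the fatty acid oxidation and fasting list to pass, and the list's median was 0.02. In the fit without conventional WT 4, pdk2b, a kinase that restrains pyruvate oxidation, and ucp2, a mitochondrial carrier, also passed, with interactions of −0.73 ± 0.16 and −0.90 ± 0.16, against −0.70 (adjusted p = 0.0506) and −0.61 (adjusted p = 0.519) from all 16. These 3 of 31 were 9.68% of the list, against 10.7% of all genes.

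Retinoid handling had 2 called genes of 16 tested, cyp26a1 and rbp4, both negative, and a list median of −0.08. Without conventional WT 4, 4 of 16 passed (25%, against 10.7% of all genes): these 2, the transporter-like stra6l with −0.55 ± 0.16 and, in the other direction, the carotenoid-cleaving enzyme gene bco1 with 0.58 ± 0.14, and the median was −0.13. From all 16 libraries stra6l had −0.44 (adjusted p = 0.290) and bco1 0.47 (adjusted p = 0.185). cyp26a1 degrades retinoic acid. It had 0.719, 0.384, 0.475 and 0.927 CPM in conventional il22-/-, 0.933, 1.3, 1.08 and 0.992 CPM in germ-free il22-/-, 4.51, 5.997, 8.56 and 2.72 CPM in conventional WT and 1.97, 1.58, 1.69 and 1.67 CPM in germ-free WT. Conventional WT lay above and conventional il22-/- below all other libraries, with an interaction of −2.43 ± 0.44 (adjusted p = 0.0250; −1.42 on log2(TPM + 1)).

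rbp4, the retinol carrier of plasma, averaged 176 ± 27.8 CPM in conventional il22-/-, 152 ± 20.04 CPM in germ-free il22-/-, 346 ± 52.8 CPM in conventional WT and 163 ± 12.7 CPM in germ-free WT (SD, n = 4 each; interaction −0.88 ± 0.18, adjusted p = 0.0372). rbp4 is also on the hepatocyte list, and the mean log2 CPM of that list was highest in the group where rbp4 was high: −0.180 to 4.1 in conventional il22-/-, 0.0919 to 2.97 in germ-free il22-/-, 2.95 to 4.12 in conventional WT and −0.109 to 2.70 in germ-free WT. With the hepatocyte and pancreas scores as covariates its interaction was −0.79 (adjusted p = 0.137). The hepatocyte score includes rbp4 itself, so this covariate is not independent of it. rdh14b, a retinol dehydrogenase family gene that is not on the list, had an interaction of −0.85 ± 0.13 (adjusted p = 0.0183), with 7.74 to 8.50 CPM in conventional il22-/-, 10.8 to 13.7 CPM in germ-free il22-/-, 15.5 to 19.4 CPM in conventional WT and 13.8 to 15.8 CPM in germ-free WT.

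Of 9 tested bile acid genes 1 passed, cyp8b1.1, a sterol 12-alpha-hydroxylase-like gene. It had 39.3, 38.0, 34.7 and 33.5 CPM in conventional il22-/-, 81.7, 45.9, 52.5 and 65.3 CPM in germ-free il22-/-, 30.2, 35.4, 61.6 and 42.7 CPM in conventional WT and 13.2, 12.3, 25.2 and 27.6 CPM in germ-free WT. Microbes went with a lower level in il22-/- and a higher one in WT, with no overlap within either genotype, although only the WT response passed, and the interaction was −1.87 ± 0.39 (adjusted p = 0.0453). cyp7a1, the rate-limiting enzyme of the same pathway, had an interaction of the same size, −1.87, that did not pass edgeR's test (adjusted p = 0.134). DESeq2 called it from all 16 libraries (adjusted p = 0.0320), and without conventional WT 4 edgeR gave −2.07 ± 0.57 (adjusted p = 0.0375). cyp27a1.4, a sterol 27-hydroxylase-like gene, also passed without that library, in the other direction, with 0.73 ± 0.17 (adjusted p = 0.0123), against 0.34 (adjusted p = 0.638) from all 16. In that fit 3 of the 9 bile acid genes passed (33.3%, against 10.7% of all genes), 1 positive and 2 negative. cyp8b1.1 and cyp7a1 encode liver enzymes in mammals, and the hepatocyte scores above differed among the groups. Their part in the result was not tested beyond the covariate fit, in which cyp8b1.1 had −1.96 (adjusted p = 0.143).

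mylipa, the ubiquitin ligase Mylip (Idol) that degrades the low density lipoprotein receptor, had the smallest p after crtac1a. It stood at 61.2, 58.6, 71.4 and 69.5 CPM in conventional il22-/-, 115, 130, 111 and 131 CPM in germ-free il22-/-, 98.0, 105, 103 and 102 CPM in conventional WT and 97.8, 90.9, 112 and 113 CPM in germ-free WT. The response was −0.90 ± 0.09 in il22-/- and −0.02 ± 0.09 in WT, an interaction of −0.88 ± 0.12 (adjusted p = 0.0106). atp1a1a.3, a sodium pump subunit with near-identical neighbours, was low in il22-/- under both rearings, at 0.161 to 0.621 CPM in conventional and 1.39 to 3.28 CPM in germ-free il22-/-, against 4.82 to 12.03 CPM in conventional and 6.85 to 9.90 CPM in germ-free WT (interaction −2.43 ± 0.52, adjusted p = 0.0453; −0.68 on log2(TPM + 1), where it did not pass). thap4 averaged 3.22 ± 0.364 CPM in conventional il22-/- and 5.98 to 7.23 CPM in the other 3 groups, an interaction of −1.05 ± 0.19 (adjusted p = 0.0250).

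Clock and light-driven genes had 2 called members of 30 tested, both cryptochrome family genes and both negative, and a list median of −0.17. DESeq2 called 6 of the 30, and 3.88% of all genes to which it gave an adjusted p. cry5, a light-induced photolyase that repairs ultraviolet damage in zebrafish, had 14.4, 18.03, 20.2 and 20.1 CPM in conventional il22-/-, 11.3, 10.0, 12.2 and 12.3 CPM in germ-free il22-/-, 26.1, 24.4, 26.4 and 20.02 CPM in conventional WT and 6.49, 6.68, 8.19 and 7.61 CPM in germ-free WT. It was higher with microbes in both genotypes, and the interaction was −1.07 ± 0.17 (adjusted p = 0.0183). cry3b had 120, 126, 123 and 143 CPM in conventional il22-/-, 232, 253, 222 and 282 CPM in germ-free il22-/-, 180, 205, 234 and 231 CPM in conventional WT and 256, 225, 232 and 225 CPM in germ-free WT, and its interaction was −0.80 ± 0.13 (adjusted p = 0.0186). Only conventional il22-/- stood apart in cry3b.

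Without conventional WT 4, 8 of the 30 clock genes passed (26.7%) and all 8 were negative, against 10.7% of all genes called in that fit and 6% called negative. Besides the 2 already named these were cry1a and cry1b, which encode the clock's repressors, bmal1b, its activator, rorcb, which drives bmal1 genes, and the light-responsive per2 and tefb. Their interactions ran from −0.39 ± 0.09 in cry1a to −0.87 ± 0.25 in rorcb. From all 16 libraries the 6 additional genes had interactions of −0.35 to −0.81 and adjusted p values of 0.0559 to 0.482. In cry1b and bmal1b the unadjusted p of edgeR's test rose without conventional WT 4, from 0.000450 and 0.000804 to 0.000596 and 0.00184. In the others it fell. nr1d1, a repressor of bmal1 genes, was not among them: it had 41.7 to 48.6 CPM in conventional il22-/- and 3.92 to 5.48 CPM in germ-free il22-/-, and 36.9, 35.8, 20.6 and 7.37 CPM in conventional WT and 5.04 to 6.18 CPM in germ-free WT, with an interaction of 1.04 (adjusted p = 0.347). The time of day at which guts were collected is not given in the sources used here, so a difference in sampling time between groups was not tested.

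The 11 genes with opposite responses had interactions between −0.45 and −2.46, and the response within each genotype was under 1 on the log2 scale except in b3gnt3.2, a glycosyltransferase gene whose mean stayed under 1 CPM in every group and whose interaction was −0.78 on log2(TPM + 1). paics, an enzyme of purine synthesis, had 52.7, 49.7, 53.9 and 54.8 CPM in conventional il22-/-, 68.2, 73.1, 64.4 and 67.9 CPM in germ-free il22-/-, 88.2, 110, 128 and 83.3 CPM in conventional WT and 66.6, 55.2, 63.5 and 82.4 CPM in germ-free WT. Conventional il22-/- was below and conventional WT above every germ-free library, with an interaction of −0.99 ± 0.18 (adjusted p = 0.0250). ppat, the first enzyme of the same pathway, named after its value was seen, had an interaction of −0.77 ± 0.16 (adjusted p = 0.0414), with a response that passed in WT alone.

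snx11, a sorting nexin of endosomes, was the opposite-response gene of smallest p. It had 10.7, 9.92, 11.7 and 11.4 CPM in conventional il22-/-, 13.8, 15.1, 13.9 and 13.97 CPM in germ-free il22-/-, 19.7, 20.1, 18.7 and 20.5 CPM in conventional WT and 16.97, 14.9, 16.3 and 17.3 CPM in germ-free WT (interaction −0.64 ± 0.10, adjusted p = 0.0183). tnfrsf21, the death receptor DR6, averaged 5.104 ± 0.985 CPM in conventional and 7.59 ± 0.692 CPM in germ-free il22-/-, and 6.37 ± 0.942 CPM in conventional and 4.64 ± 0.319 CPM in germ-free WT (SD, n = 4 each; interaction −1.03 ± 0.20, adjusted p = 0.0288). Interactions of −0.97 ± 0.18 for mterf2, a mitochondrial transcription factor, −0.90 ± 0.17 for alp3, an alkaline phosphatase family gene, −0.90 ± 0.17 for rgl1, an activator of Ral GTPases, −0.88 ± 0.19 for the chromatin remodeller ino80 and −0.54 ± 0.11 for yipf1, a Golgi membrane protein, had adjusted p values of 0.0253 to 0.0430. In ino80 the value of conventional WT 4, 23.1 CPM, lay within the germ-free WT range of 20.8 to 25.6 CPM, while the other 3 conventional WT libraries had 31.5 to 38.9 CPM.

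Endoplasmic reticulum stress genes had 2 called members of 28 tested, both positive, and 12 at an unadjusted p under 0.05. The list's median interaction was 0.39, against −0.0112 over all genes, and 22 of 28 members were above 0. calr3b, a calreticulin chaperone, had 75.6, 69.5, 61.2 and 51.5 CPM in conventional il22-/-, 28.3, 30.5, 25.2 and 24.6 CPM in germ-free il22-/-, 55.5, 57.6, 57.3 and 46.8 CPM in conventional WT and 40.9, 44.2, 40.9 and 33.9 CPM in germ-free WT. The order of group means was conventional il22-/-, conventional WT, germ-free WT, germ-free il22-/-, with overlap between the conventional groups only, and the interaction was 0.80 ± 0.16 (adjusted p = 0.0389). trib3, a pseudokinase induced by the integrated stress response, had the same order of means and an interaction of 0.85 ± 0.18 (adjusted p = 0.0430). DESeq2 called 9 genes of the list, against 3.88% of all genes, and limma on the deposited TPM values called 0, with 12 at an unadjusted p under 0.05.

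Of the 28, 6 passed without conventional WT 4 (21.4%), all positive, against 10.7% of all genes called in that fit and 4.68% called positive. The additional 4 were hspa5, the main chaperone of the endoplasmic reticulum, with 0.98 ± 0.28, calr with 0.80 ± 0.16, xbp1, a transcription factor of the unfolded protein response, with 0.41 ± 0.10, and ddit3, a stress-induced transcription factor, with 0.43 ± 0.13. From all 16 libraries their interactions were 1.06, 0.67, 0.41 and 0.43 and their adjusted p values 0.0829, 0.101, 0.0643 and 0.107. In hspa5, xbp1 and ddit3 the unadjusted p of edgeR's test was larger without conventional WT 4. It rose from 0.00134, 0.000672 and 0.00262 to 0.00409, 0.00112 and 0.00388, while in calr it fell. Those with a larger p passed only through the looser cutoff of the fit with more calls. hspa5 had 275, 284, 202 and 260 CPM in conventional il22-/-, 159, 86.97, 106 and 118 CPM in germ-free il22-/-, 235, 220, 209 and 175 CPM in conventional WT and 191, 262, 142 and 210 CPM in germ-free WT. Germ-free il22-/- guts overlapped with germ-free WT in a single library, and the other 3 groups overlapped widely.

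The genes differed in which group carried the interaction. In 36 of the 82 all 4 conventional il22-/- libraries lay below the other 12 libraries, and in 12 they lay above. Over all genes tested these shares were 4.93% and 4.23%. Conventional WT lay above the rest in 13 genes and below in 2, against 1.58% and 1.38% of all genes. Germ-free il22-/- lay above in 7 and below in 10, against 2.87% and 1.99% of all genes, and germ-free WT above in 1 and below in 6, against 2.13% and 1.86%. A gene with an interaction must differ in at least 1 group, so these counts describe the 82 genes and support nothing about them.

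**Figure D4:**
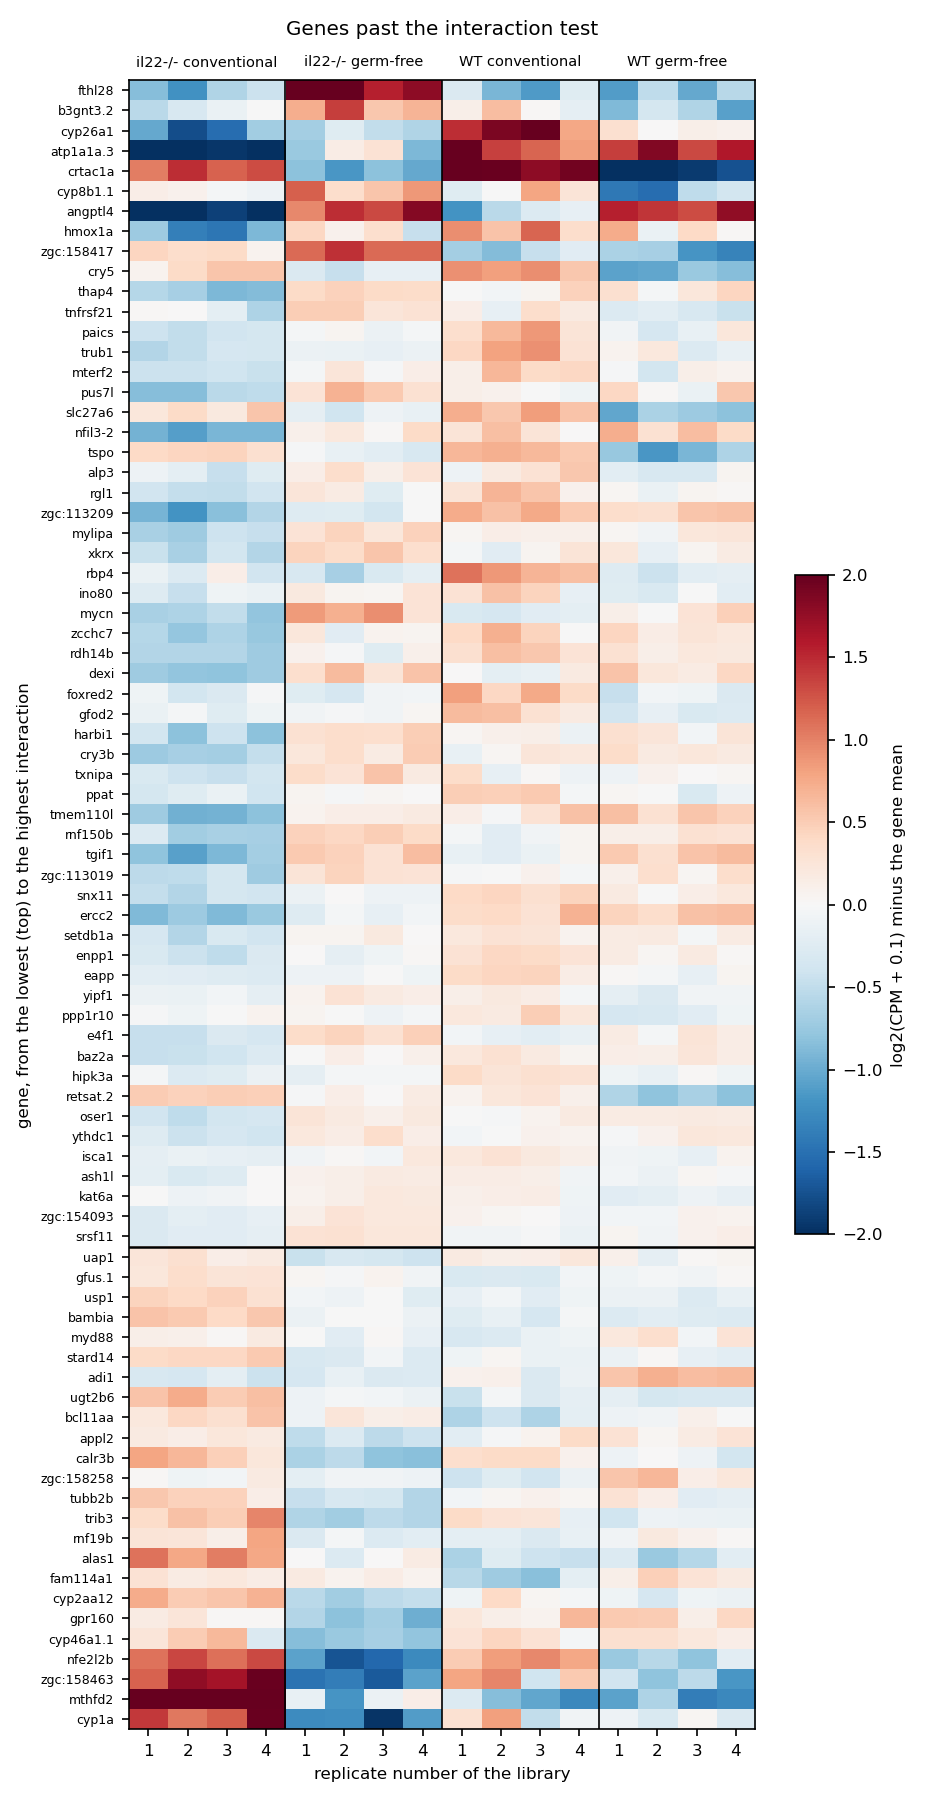
Rows are the 82 genes past the interaction test, ordered from the most negative interaction at the top to the most positive at the bottom, and columns the 16 libraries by group and replicate number. Colour is log2(CPM + 0.1) minus the gene's mean over the libraries, limited to ± 2. Above the line are the 58 negative interactions, where the conventional il22-/- columns are often the lowest, and below it the 24 positive ones.

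For the pathway of il22 itself, none of 22 tested genes on the list for the IL-22 receptor and STAT3 passed the interaction by edgeR's test, and DESeq2 called 0. At an unadjusted p under 0.05 there were 4, against 1658 of 11195 over all genes, and the list median was 0.24. stat3 had 45.0 to 58.9 CPM in conventional il22-/-, 50.6 to 69.5 CPM in germ-free il22-/-, 44.5 to 69.3 CPM in conventional WT and 51.7 to 70.96 CPM in germ-free WT, with overlap among all groups and an interaction of 0.20 (adjusted p = 0.691). socs3b, the feedback inhibitor that STAT3 induces, had an interaction of 0.35 (adjusted p = 0.517). Without conventional WT 4, 4 members passed (18.2%, against 10.7% of all genes), all positive, and the list median was 0.40. They were il20ra, a receptor chain of the same cytokine family, with 0.48 ± 0.11, the kinase jak2a with 0.48 ± 0.12, the kinase pim1 with 0.44 ± 0.12, and myca, a zebrafish c-Myc gene, with 0.40 ± 0.11, against 0.30 to 0.35 from all 16 libraries (adjusted p of 0.306 to 0.363). In il20ra conventional WT 4 had 90.02 CPM and the other 3 conventional WT libraries 58.4 to 66.4 CPM, with 88.7 to 95.0 CPM in conventional and 71.4 to 79.1 CPM in germ-free il22-/-.

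Of 17 tested glucocorticoid-responsive genes 0 passed from all libraries by edgeR's test, and 2 were called by DESeq2, against 3.88% of all genes. At an unadjusted p under 0.05 there were 3, against 1658 of 11195 over all genes. Once conventional WT 4 was left out, 3 passed (17.6%, against 10.7% of all genes): zbtb16a and hsd11b2, the enzyme that inactivates cortisol, with −2.40 ± 0.31 and −1.48 ± 0.22, and the receptor gene nr3c1 with 0.63 ± 0.13. With that library included, hsd11b2 had −1.26 (adjusted p = 0.101) and nr3c1 0.35 (adjusted p = 0.526). zbtb16a, a zinc finger repressor, had 1.999 to 4.42 CPM in conventional il22-/- and 3.06 to 4.16 CPM in germ-free il22-/-, and 12.7, 10.8, 10.9 and 1.99 CPM in conventional WT and 1.65 to 2.89 CPM in germ-free WT. From all 16 libraries its interaction in edgeR was −2.07 (adjusted p = 0.111), so by that test this single library set whether it passed. The 2 genes that DESeq2 called from all 16 libraries were zbtb16a (adjusted p = 0.0138) and hsd11b2 (adjusted p = 0.00914). fkbp5 did not pass with or without conventional WT 4, with 547 to 828 CPM in conventional and 18.7 to 77.2 CPM in germ-free il22-/-.

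Of 38 tested immediate early and heat shock genes, 0 passed from all libraries by edgeR's test, with 8 at an unadjusted p under 0.05. DESeq2 called 4, against 3.88% of all genes. These were atf3 with 1.66 ± 0.41 (adjusted p = 0.00496), and hsf1, jun and fosl2 (adjusted p of 0.00717 to 0.0145). In edgeR 7 passed without conventional WT 4 (18.4%, against 10.7% of all genes), 3 positive and 4 negative, with list medians of 0.79 in both fits. The positive ones were jun and fosl2, subunits of the AP-1 factor, with 0.77 ± 0.22 and 0.82 ± 0.23, and the chaperone hsp90aa1.2 with 1.24 ± 0.18. The negative ones were hsf1, the regulator of heat shock genes, with −0.68 ± 0.09, hspa4a with −1.01 ± 0.25, hspd1 with −0.59 ± 0.17 and hspe1 with −0.35 ± 0.10. With all libraries, hsp90aa1.2 had 0.45 (adjusted p = 0.716), hsf1 −0.58 (adjusted p = 0.0643), and hspa4a, hspd1 and hspe1 −0.74, −0.40 and −0.26 (adjusted p of 0.403 to 0.502). In hsp90aa1.2 conventional WT 4 had 14.6 CPM and the other conventional WT libraries 3.53 to 3.92 CPM. fosl2 had 0.82 from all libraries (adjusted p = 0.0895). For jun the interaction was 0.81 from all libraries (adjusted p = 0.0824), with 91.2 to 142 CPM in conventional il22-/- and 46.9 to 73.6 CPM in the other 12 libraries. In jun and fosl2 the unadjusted p of edgeR's test rose without conventional WT 4, from 0.00121 and 0.00156 to 0.00346 and 0.00380.

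DNA replication and mitosis genes leaned one way without passing. None of 26 passed from all libraries by edgeR's test, with 8 at an unadjusted p under 0.05, and DESeq2 called 3, against 3.88% of all genes. In edgeR 24 of 26 interactions were positive, against 48.3% over all genes, and the median was 0.78. The 26 genes were read from the same pools and are not independent, so this count is a description only. kif11, a spindle motor, and ccna2, cyclin A2, passed without conventional WT 4, with 1.15 ± 0.29 and 1.41 ± 0.41, against 1.05 (adjusted p = 0.09998) and 1.36 (adjusted p = 0.108) from all libraries. These 2 of 26 were 7.69%, below the 10.7% of all genes called in that fit. In ccna2 the unadjusted p of edgeR's test rose without conventional WT 4, from 0.00270 to 0.00351, and in kif11 it fell. These genes were low: ccna2 had 2.37, 1.54, 2.96 and 1.25 CPM in conventional il22-/-, 0.894 to 1.26 CPM in germ-free il22-/-, 1.59 to 2.59 CPM in conventional WT and 2.21 to 4.12 CPM in germ-free WT.

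**Figure D5:**
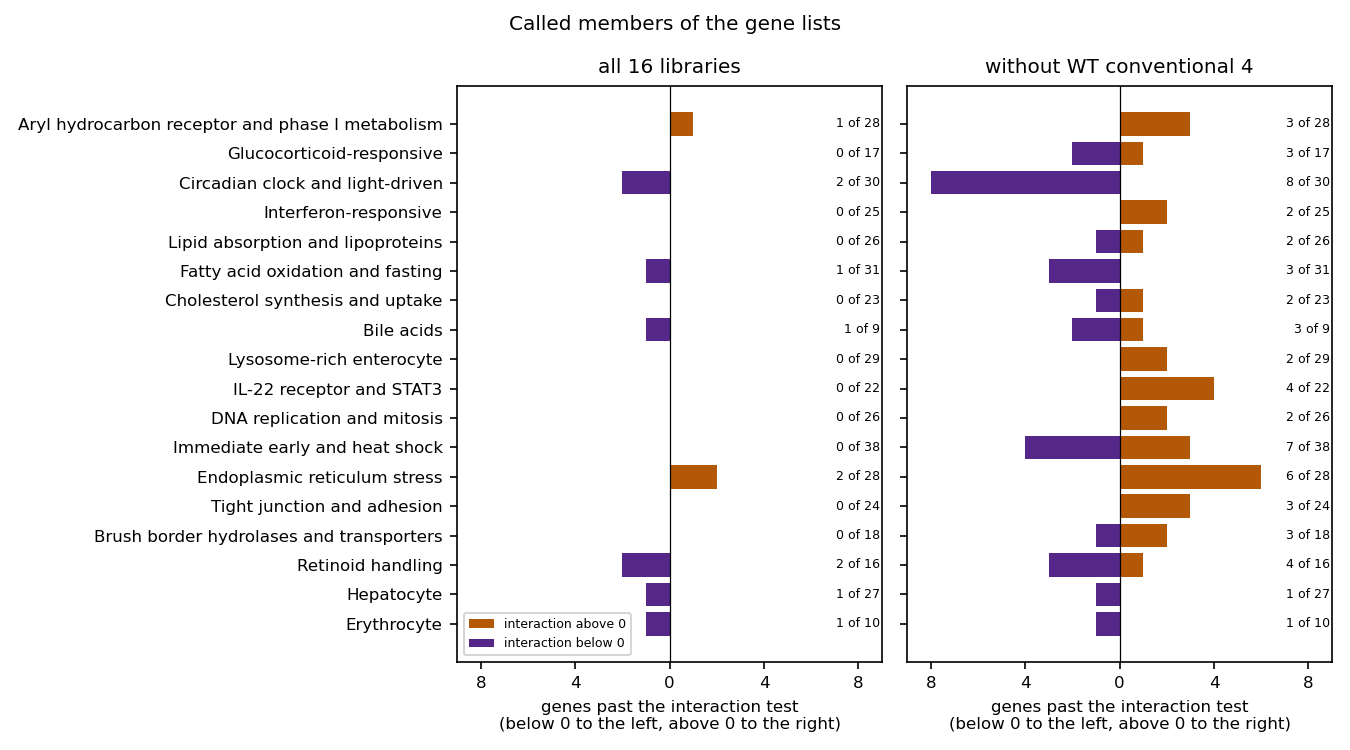
Bars count the members of each gene list past the interaction test, positive to the right and negative to the left of 0, from all 16 libraries (left panel) and without conventional WT 4 (right panel), with called of tested members printed at the edge. Lists with no called member in the left panel and at most 1 in the right panel are not drawn. Clock genes have 2 negative calls in the left panel and 8 in the right, and endoplasmic reticulum stress genes 2 and 6 positive ones.

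From all 16 libraries 24 of the 32 lists had no called gene by edgeR's test, and 15 of these 24 had none by DESeq2 either. Beside the 4 described above, the 24 without a call by edgeR include the inflammation and acute phase list (22 tested) and the interferon-responsive list (25). Goblet and mucus (5), enteroendocrine (23), macrophage (16), neutrophil (12), lymphoid (14), tight junction (24) and enteric neuron and glia genes (22) are also among the 24. Each of the lists named here had 0 to 6 genes at an unadjusted p under 0.05.

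Without conventional WT 4, 25 of the 32 lists had at least 1 called gene, in a fit that called 10.7% of all genes. Interferon-responsive genes had 2 positive calls of 25 (8%): stat2, a signal transducer of interferons, had 1.37 ± 0.33, against 0.91 from all libraries, and psmb8a, an immunoproteasome subunit, 1.68 ± 0.51, against 1.34. Tight junction genes had 3 of 24 (12.5%), all positive: cdh1, the gene of E-cadherin, had 0.49 ± 0.11, against 0.34 from all libraries, oclna, an occludin, 0.60 ± 0.17, against 0.52, and tjp3 0.32 ± 0.09, against 0.17. Brush border genes had 3 of 18 (16.7%), the peptidases anpepa with 0.55 ± 0.10 and dpp4 with 0.41 ± 0.12 and, in the other direction, the sodium-glucose transporter slc5a1 with −0.50 ± 0.14. The lipid absorption, cholesterol and lysosome-rich enterocyte lists had 2 calls each.

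The hepatocyte and erythrocyte lists had single calls without conventional WT 4, rbp4 and tspo, which also passed from all 16 libraries. Other single calls in that fit were nox1, an epithelial oxidase (1.399 ± 0.27, against 0.57 from all libraries), nfkbie of the inflammation list (0.63 ± 0.14, against 0.30), cebpa of the neutrophil list (1.03 ± 0.22, against 0.53), runx3 of the lymphoid list (0.99 ± 0.25, against 0.86), gpt of the gluconeogenesis list (−0.46 ± 0.12, against −0.43), ppl of the skin list (0.46 ± 0.11, against 0.40) and sftpbb of the swim bladder list (0.54 ± 0.15, against 0.35). None of these other single calls passed edgeR's test from all 16 libraries. From the same 16, DESeq2 called runx3, gpt and ppl (adjusted p = 0.0487, 0.0317 and 0.0495). The 7 lists with no call in either fit were goblet, enteroendocrine, macrophage, smooth muscle, enteric neuron, exocrine pancreas and skeletal muscle genes.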

How the data were processed

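For the 20 libraries of conventional, germ-free and co-housed larvae, the authors deposited gene-level raw counts, and TPM values that they had normalized for transcript length and library total. Per the labels' protocols, RNA was prepared into stranded mRNA libraries, sequenced as paired 100-base reads on a NovaSeq 6000, checked with FastQC 0.11.8 and aligned to the zebrafish build danRer11. Which aligner, counting tool, strand setting and annotation were used is not given in the sources used here. Reads of overlapping or near-identical genes may therefore be shared between them. Of 15419 rows, 14311 had a current symbol, 909 were updated through an older one and 199 kept the table's name.

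From the deposited counts of 16 libraries, the interaction and the response in each genotype were fitted under R 4.3.3 by edgeR 4.0.16, using filterByExpr with the 4 groups, TMM factors and robust quasi-likelihood F tests, with a threshold of 0.05 on adjusted p. SE is the absolute log2 value divided by the square root of F. CPM values use TMM library sizes. Alternatives were other scaling, DESeq2 1.42.0, other filters, limma 3.58.1 on log2(TPM + 1) and log2(TPM + 0.1), a replicate block, covariates, and leaving out libraries. No pair of libraries of the same group agreed within sampling noise, and pairs across groups were not checked.

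The members, the 26 pathway and 6 cell type lists and the tests were chosen with earlier results of these data known, so no list was tested as a set. Members of a list were read from the same pools, so counts of their signs are not counts of independent readings. Named genes are, among called genes with a mean of at least 5 CPM in 1 group and no clone name, the 10 largest positive and 10 largest negative interactions, the 10 of smallest p, up to 8 with opposite responses and up to 4 per list. Not every one is printed. Intervals and p-values measure the spread between pools.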

Additional observations from a re-analysis of the deposited data

Results flagged for a closer look

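The 82 genes past the interaction test are those whose response to microbes differed between il22-/- and WT larvae by a test of the difference itself. For 11 of them the responses passed in both genotypes with opposite signs, and their interactions were −0.64 for snx11, −0.57 for enpp1, −0.99 for paics, −0.97 for mterf2, −2.46 for b3gnt3.2, −0.90 for alp3, −0.90 for rgl1, −0.45 for kat6a, −0.54 for yipf1, −1.03 for tnfrsf21 and −0.88 for ino80. enpp1 encodes an ectoenzyme that cleaves nucleotides, and kat6a a histone acetyltransferase.

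The screen for single outlying libraries covered 132 groups of 4 libraries, from called genes taken by the rule for naming. In 5 of them a library's distance from its nearest neighbour took a larger part of the group's range than Dixon's critical value. These genes had all passed with conventional WT 4 included, so the screen says little about that library. Genes named above that did not pass were outside it, such as hsp90aa1.2. Its level was 14.6 CPM in conventional WT 4, against 3.53 to 3.92 CPM in the other conventional WT libraries. Chance flags about 1 in 20 groups. cyp2aa12 had 129.5 CPM in germ-free WT 2, against 150.5 to 154 CPM in the other 3 of that group. trib3 had 42.8 CPM in germ-free WT 1, against 51.6 to 52.5 CPM in the others. thap4 had 7.57 CPM in germ-free il22-/- 2, against 7.10 to 7.12 CPM. rdh14b had 7.74 CPM in conventional il22-/- 4, against 8.44 to 8.50 CPM. snx11 had 15.1 CPM in germ-free il22-/- 2, against 13.8 to 13.97 CPM. In thap4, rdh14b and snx11 the gap to the nearest other library was under 1.2 CPM.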

How the results depend on the processing

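All 82 genes kept the sign of the interaction and an unadjusted p under 0.05 in every alternative run, while the number past the adjusted threshold varied widely. The 82 had been chosen from these same libraries at an unadjusted p of at most 0.000366 in edgeR's test. Their sign and p in refits were thus largely fixed beforehand and are no independent support. The counts that follow are total, positive, negative and, where they moved by over 1.5 times, genes with opposite responses. DESeq2 gave 383, 141, 242 and 23, no filter on low counts 47, 15, 32 and 7, and the co-housed libraries in the fit 50, 13 and 37. Leaving out the 2 libraries with the most skeletal muscle transcripts gave 11, 3, 8 and 2. Covariates for the exocrine pancreas and hepatocyte scores gave 2, 0, 2 and 0. TPM with a pseudocount of 1 gave 61 calls, 12 of them positive, and with 0.1 it gave 48, 8 positive, 40 negative and 7 opposite. Positive calls were thus 16.7% there, 19.7% with a pseudocount of 1, 0% with covariates and 29.3% from the 16 libraries. On TPM with a pseudocount of 1, 5 of the 82 interactions were over 1.5 times smaller: −1.42 for cyp26a1, −0.78 for b3gnt3.2, 0.57 for mthfd2, −0.68 for atp1a1a.3 and 0.64 for cyp46a1.1, against 1.12 for cyp46a1.1 from the counts. DESeq2 size factors gave 77 calls and a stricter filter 87.

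Leaving out 1 library gave 6 to 1204 calls, 2 to 528 positive, 4 to 676 negative and 0 to 98 with opposite responses. The upper values all came from leaving out conventional WT 4 and raised the positive share to 43.9%, while the other 15 fits gave 6 to 58 calls. The lowest, 6, came without conventional il22-/- 2. All 16 such fits called crtac1a, mylipa, tspo, rdh14b, cyp2aa12 and cyp1a, and 19 genes were called in at least 12.

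No label says that replicate numbers are shared between groups. Of 24 correlations between same-numbered libraries of different groups 2 were over 0.1, with a range of −0.43 to 0.23 and a median of −0.0489. Differently numbered pairs were not compared, so pairing by number was not tested further than by the fit that follows. The replicate block gave 33 calls, 11 positive and 22 negative, with 7 opposite. Alternatives chosen after seeing the data were voom quality weights, with 1304 calls, 579 positive, 725 negative and 123 opposite, in which conventional WT 4 had a weight of 0.180 against 0.620 to 2.51, and a skeletal muscle covariate, with 84 calls, 67 of them among the 82. The causes of these shifts were not tested. Leaving out each library in turn was planned, but giving the lists without conventional WT 4 was chosen after seeing the data.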

Other observations

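The same count table holds 4 libraries of co-housed il22-/- guts, which enter nothing above except the alternative with the co-housed libraries in the fit. Levels of the 10 interaction genes of smallest p were read from them as a description, on library sizes scaled over all 20 libraries. cyp1a averaged 228 ± 67.7 CPM (SD, n = 4) in co-housed il22-/-, with a range of 135 to 297 CPM, against means of 613 CPM in conventional il22-/-, 86.8 CPM in germ-free il22-/-, 259 CPM in conventional WT and 200 CPM in germ-free WT. fthl28 averaged 32.8 ± 16.99 CPM in co-housed il22-/-, against 15.9, 140, 17.6 and 15.6 CPM in those 4 groups, and crtac1a 52.8 ± 6.32 CPM, against 81.7, 17.6, 130 and 7.65 CPM. cyp2aa12 averaged 209 ± 13.7 CPM in co-housed il22-/-, against 253, 111, 174 and 147 CPM, and mylipa 85.6 ± 18.6 CPM, against 65.3, 122, 102 and 104 CPM.

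tspo averaged 132 ± 14.1 CPM in co-housed il22-/-, cry5 20.8 ± 4.12 CPM, rdh14b 11.2 ± 0.386 CPM, snx11 13.1 ± 1.84 CPM and stard14 61.9 ± 11.7 CPM. The co-housed means of cyp1a, fthl28, crtac1a, cyp2aa12, mylipa, tspo, rdh14b, snx11 and stard14 all lay between the means of conventional and germ-free il22-/-, and that of cry5 lay above both, at 20.8 CPM against 18.2 and 11.46 CPM. These genes were chosen by the interaction, which uses both of those il22-/- means, so a position between them says little. Other called genes lay outside the 2 means, such as alas1 and nfe2l2b above both and nfil3-2 below both. No test was made of these values.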
